A study of Homo sapiens with 4 samples.

Results

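The HSP70 and HSP110 chaperone genes were examined in MDA-MB-231, a long-established line of human triple-negative breast cancer cells, after treatment with RB-1 or its solvent. The family was taken as the rows of the deposited gene count table whose Ensembl gene ID maps to HSPA1A, HSPA1B, HSPA4, HSPA4L, HSPA5, HSPA8, HSPA9, HSPA13, HSPA14 or HSPH1, a choice by name that was made with earlier results of these data known. All 10 were found among 20263 rows. All cells grew in DMEM with 10% fetal bovine serum and antibiotics. Treatment lasted 24 h, either with DMSO or with RB-1, by the series title a derivative of ribociclib, a drug that inhibits the kinases CDK4/6. There were 2 libraries of bulk mRNA per group, with 34122874 to 37754168 counts each. The dose of RB-1 is not given in the labels, and it is not said whether libraries come from separate cultures, so the p-values speak only of the variation among these 4 libraries, which may be technical.

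HSP70 proteins bind exposed hydrophobic stretches of other proteins in a cycle driven by ATP. J-domain proteins bring them substrates and trigger ATP hydrolysis, and nucleotide exchange factors, among them the HSP110 proteins, release the ADP so that the substrate can leave. Each compartment has its own members: HSPA8, HSPA1A and HSPA1B with the HSP110 proteins HSPH1, HSPA4 and HSPA4L in the cytosol and nucleus, HSPA5 and HSPA13 in the endoplasmic reticulum (ER), HSPA9 in mitochondria, and HSPA14 at the ribosome. Heat shock factor HSF1 induces cytosolic genes such as HSPA1A and HSPA1B by binding heat shock elements. In the ER, HSPA5 is induced by the unfolded protein response through ER stress elements.

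The start regions of the family carried these elements unevenly, and stretches with a match are shown here, with the window of HSPH1. Whether the elements bear on the changes described below was not tested. RefSeq start sites (GRCh38.p14) were used for the 9 members other than HSPA14, and the 250 bases before each start were searched on both strands for the heat shock element in its short forms GAANNTTC and TTCNNGAA, which may overlap each other, and for the ER stress element, CCAAT followed after 9 bases of any kind by CCACG. A match is a description of the letters, not a site shown to be bound. Either short heat shock form occurred in 11.6% of the 35116 start regions of all genes in the table of promoters, and the ER stress element in 0.074%. Among the members, either heat shock form was found before HSPA1A, HSPA1B, HSPA8 and 1 of the 3 starts of HSPA4L. The ER stress element was found before HSPA5, while HSPA4, HSPA9, HSPA13 and HSPH1 held neither. In the sequences below, written 5′ to 3′ on the gene's own strand, capitals mark the matches.
HSPA8 (chr11:123062346-123062375, minus strand): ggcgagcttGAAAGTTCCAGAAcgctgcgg
HSPA8 (chr11:123062171-123062200, minus strand): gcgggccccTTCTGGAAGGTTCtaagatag
HSPA1A (chr6:31815293-31815463, plus strand): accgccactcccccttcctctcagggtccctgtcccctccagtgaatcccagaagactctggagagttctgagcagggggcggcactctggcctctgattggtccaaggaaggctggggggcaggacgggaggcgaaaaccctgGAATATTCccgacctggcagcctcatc
HSPA1B (chr6:31827488-31827658, plus strand): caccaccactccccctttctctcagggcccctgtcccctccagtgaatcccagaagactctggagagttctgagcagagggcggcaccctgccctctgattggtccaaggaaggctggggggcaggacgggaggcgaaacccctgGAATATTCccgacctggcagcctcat
HSPA4L (chr4:127782141-127782170, plus strand): tttccagatctTTCTCGAAcccgcagcttc
HSPA5 (chr9:125241344-125241593, minus strand): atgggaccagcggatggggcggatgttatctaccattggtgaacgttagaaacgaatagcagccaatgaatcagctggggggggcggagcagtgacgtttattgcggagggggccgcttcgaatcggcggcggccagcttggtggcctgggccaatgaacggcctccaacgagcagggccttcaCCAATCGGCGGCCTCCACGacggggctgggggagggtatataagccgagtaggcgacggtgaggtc
HSPH1 (chr13:31162389-31162638, minus strand): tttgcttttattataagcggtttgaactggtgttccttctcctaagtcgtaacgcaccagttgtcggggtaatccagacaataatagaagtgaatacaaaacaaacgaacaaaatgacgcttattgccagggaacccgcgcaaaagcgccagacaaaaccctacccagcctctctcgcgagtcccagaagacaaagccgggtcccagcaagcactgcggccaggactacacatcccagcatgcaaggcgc

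HSPA8 held 4 matches in 2 overlapping pairs, one 230 to 218 bases before the start and the other 55 to 43 bases before it. HSPA1A and HSPA1B each held a single match with the same letters, at 106 to 99 and 105 to 98 bases before the start. Their full windows of 250 bases, printed above only from 250 to 80 bases before the start, were 93.6% identical in alignment. The 1 exact match to the ER stress element in the window of HSPA5 lay 66 to 48 bases before its start, and looser forms were not searched. The window of HSPH1, the member that changed most, is shown for comparison and held neither element, which says only that these letters are not in this window.

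After RB-1, transcripts of 8 of the 10 members fell and the other 2, the ER members HSPA5 and HSPA13, did not pass the test. The falls ran from 1.75-fold for HSPA1B to 7.32-fold for HSPH1, and the median log2 fold change of the members was -0.99, against 0.012 over all 13612 genes tested. A gene was called at a Benjamini-Hochberg adjusted p under 0.05 in edgeR's quasi-likelihood test over all genes. Among all genes tested 16.1% were called lower and 12.8% higher. For the same 8 members both RB-1 libraries lay below both DMSO libraries, which was the case for 34.3% of all genes. The members called lower numbered 3 with DMSO replicate 1 left out, 5 with DMSO replicate 2 left out, 5 with RB-1 replicate 1 left out and 6 with RB-1 replicate 2 left out, and 4 with library totals alone. Levels are given in CPM, counts scaled to each library's total, here with TMM factors. In bulk RNA a change in the number of cells of a kind and in the RNA per cell cannot be told apart.

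**Figure D1:**
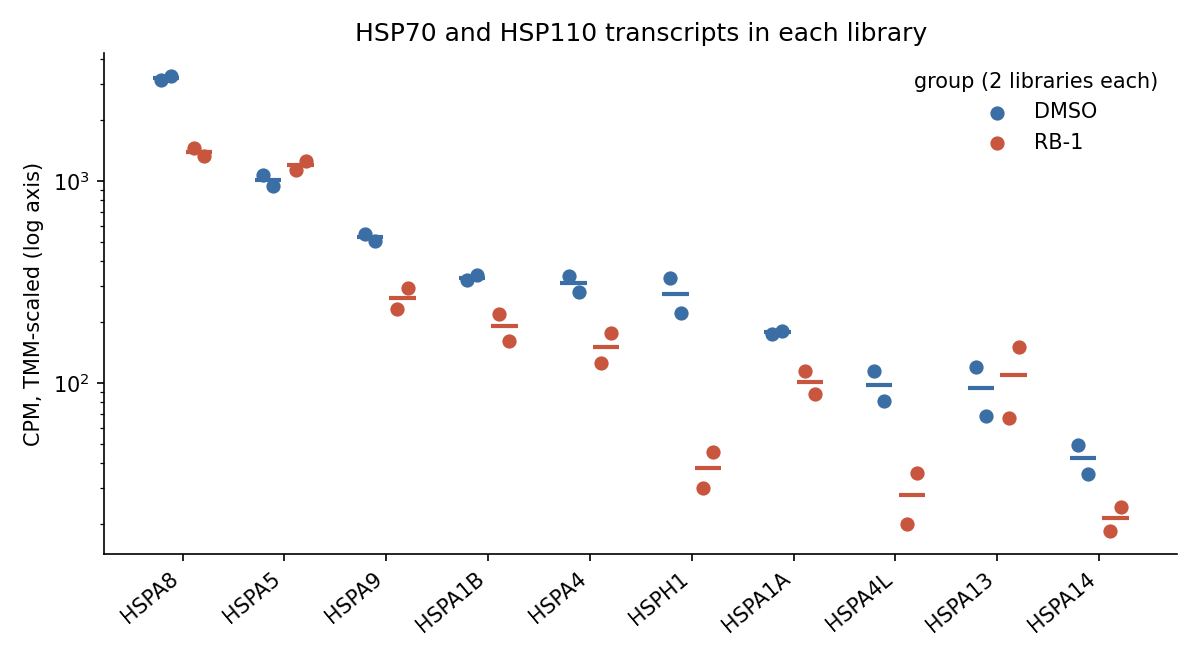
Each point is 1 library and each short line the mean of 2, with DMSO in blue and RB-1 in red, on a log axis of CPM. The groups are apart for every member other than HSPA13, with RB-1 above DMSO for HSPA5 (1131 and 1250 against 1071 and 940) and below it for the other 8.

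The constitutive cytosolic HSP70 fell. HSPA8 (ENSG00000109971), which encodes HSC70, the housekeeping chaperone that also uncoats clathrin vesicles, was at 3146 and 3307 CPM in the DMSO libraries and at 1460 and 1324 in the RB-1 libraries. The groups were far apart beside the spread within either, with means of 3226 ± 114 CPM for DMSO and 1392 ± 95.7 CPM for RB-1 (SD over 2 libraries). Its log2 fold change was -1.21 ± 0.22 (SE, edgeR adjusted p = 0.00386), and the call held in each of the 14 alternatives computed for it, with values from -1.31 to -1.02.

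The stress-inducible copies fell as well, and whether their change differed from that of HSPA8 was not tested. HSPA1A (ENSG00000204389) was at 175 and 181 CPM in DMSO and at 114 and 87.7 in RB-1, and HSPA1B (ENSG00000204388) at 322 and 341 against 219 and 161. In both genes the RB-1 libraries were the lower ones, with RB-1 replicate 2 the lowest. The log2 fold changes were -0.82 ± 0.24 for HSPA1A and -0.80 ± 0.24 for HSPA1B (edgeR adjusted p = 0.0303 and 0.0309). These neighbours on chromosome 6 are uncertain as single genes, since 69.9% of the 100-base windows of the HSPA1A transcript also occur in that of HSPA1B. Counts of HSPA1B stood at 1.83 to 1.91 times those of HSPA1A in every library. With the pair summed into 1 row, the log2 fold change was -0.81 ± 0.24 (edgeR adjusted p = 0.0279). The summed pair no longer passed with DMSO replicate 1 (-0.84, edgeR adjusted p = 0.0785), DMSO replicate 2 (-0.75, 0.137) or RB-1 replicate 2 (-0.61, 0.101) left out, or with library totals alone (-0.62, 0.0828). The calls of HSPA1A and of HSPA1B as single genes were lost under the same settings, with values from -0.85 to -0.60.

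All 3 HSP110 genes fell. HSPH1 (ENSG00000120694), which encodes HSP105, an exchange factor that helps HSP70 pull apart aggregated protein, was at 331 and 222 CPM in DMSO and at 30.1 and 45.5 in RB-1. In CPM its DMSO libraries differed by more than its RB-1 libraries did, but relative to their means the groups varied about alike. The lower DMSO library was still several times the higher RB-1 library. The fall was 7.32-fold (log2 fold change -2.87 ± 0.31, edgeR adjusted p = 0.00034) and stayed past the threshold in each of the 14 alternatives, between -3.20 and -2.33. HSPA4L (ENSG00000164070), a relative named APG-1 that is abundant in testis, went from 114 and 81.5 CPM to 19.9 and 35.8. It was 3.5-fold lower (-1.81 ± 0.34, edgeR adjusted p = 0.00439) and passed in each of the 14 alternatives, between -2.29 and -0.90. HSPA4 (ENSG00000170606), the relative APG-2, went from 338 and 282 CPM to 125 and 177, and was 2.05-fold lower (-1.04 ± 0.25, edgeR adjusted p = 0.0139). HSPA4 did not pass with DMSO replicate 1 (-0.90, edgeR adjusted p = 0.0774) or RB-1 replicate 1 (-0.80, 0.0908) left out, nor with library totals alone (-0.84, 0.0527).

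Transcript length moved with these values. Over 13596 tested genes the log2 fold change fell with the length of the transcript (Spearman -0.38, a description across genes, which are not independent), and its median was -0.473 in the quartile with the longest transcripts against 0.472 in the shortest. The 2 members with the largest falls, HSPH1 and HSPA4L, were also the 2 with the longest reference transcripts and the only ones in the longest quartile. With an offset for length and GC content HSPA4L was at -0.90 (edgeR adjusted p = 0.01), HSPA4 at -0.64 (0.0273), HSPA9 at -0.64 (0.0239) and HSPH1 at -2.33 (0.00121). The shorter transcripts went the other way, with HSPA1A at -1.11 and HSPA8 at -1.31, and all 8 calls remained.

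**Figure D2:**
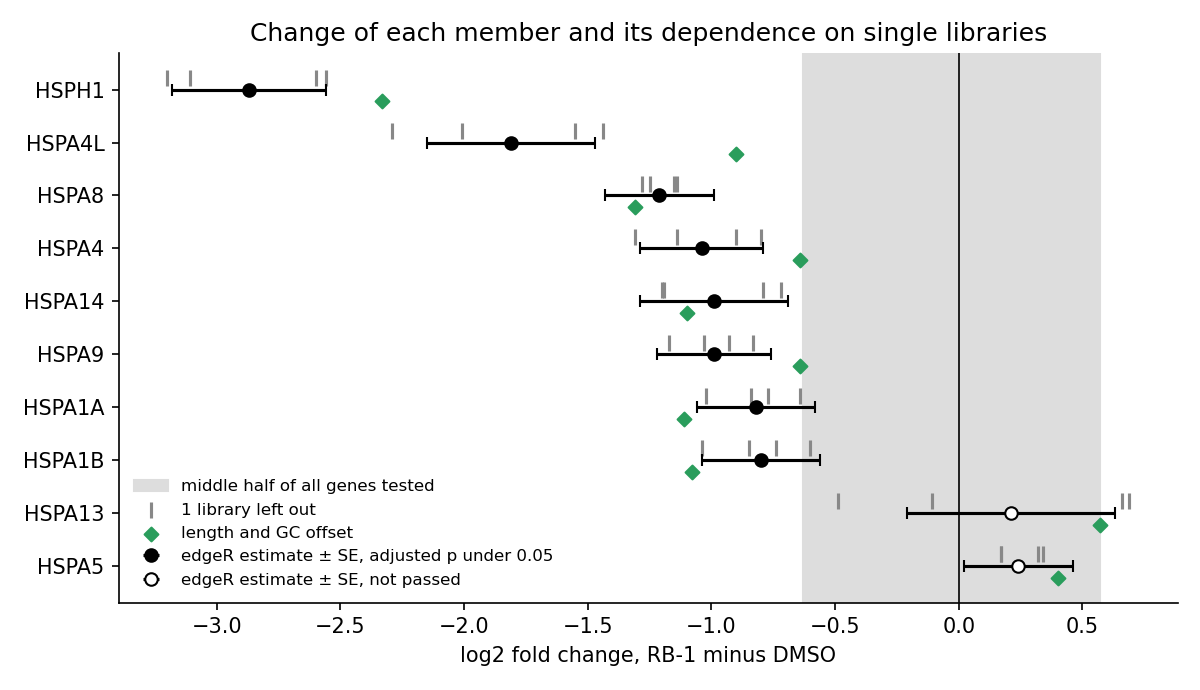
The log2 fold change (RB-1 minus DMSO) of each member with its SE is drawn as a circle, filled where the edgeR adjusted p was under 0.05. Grey ticks show the values with 1 library left out, diamonds those with the length and GC offset, and the grey band the span from the 25th to the 75th percentile of all genes tested (-0.631 to 0.573). HSPH1 lies far outside the band under each of them, while HSPA13 crosses zero.

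The mitochondrial member fell as well. HSPA9 (ENSG00000113013) encodes mortalin, which pulls proteins through the inner membrane and folds them in the matrix. It was at 546 and 502 CPM in DMSO and at 233 and 294 in RB-1, with no overlap between the groups. The log2 fold change was -0.99 ± 0.23 (edgeR adjusted p = 0.0113), and the call was lost without DMSO replicate 1 (-0.93, edgeR adjusted p = 0.0525) and without RB-1 replicate 1 (-0.83, 0.0811).

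HSPA14 (ENSG00000187522), which sits with the J-domain protein DNAJC2 in the ribosome-associated complex that meets new polypeptides, fell too. It was at 49.4 and 35.2 CPM in DMSO and at 18.4 and 24.3 in RB-1, a log2 fold change of -0.99 ± 0.30 (edgeR adjusted p = 0.0343). Its value is uncertain, since 17.4% of its exon bases are shared with MSANTD7 on the same strand. It no longer passed with DMSO replicate 1 (-0.72, edgeR adjusted p = 0.278), DMSO replicate 2 (-1.19, 0.076) or RB-1 replicate 1 (-0.79, 0.136) left out, with library totals alone (-0.80, 0.116) or with upper-quartile factors (-0.87, 0.0516).

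The ER members did not pass. HSPA5 (ENSG00000044574) encodes BiP, the main HSP70 of the ER lumen, which also holds the stress sensors of that compartment inactive. It was at 1071 and 940 CPM in DMSO and at 1131 and 1250 in RB-1, so that both RB-1 libraries lay above both DMSO libraries, as they did for 35.3% of all genes. The log2 fold change was 0.24 ± 0.22 (edgeR adjusted p = 0.428) and was between 0.17 and 0.43 in the 14 alternatives, never past the threshold. HSPA13 (ENSG00000155304), also called STCH, a short HSP70 of the ER without the substrate-binding domain, was at 119 and 68.8 CPM in DMSO and at 66.9 and 151 in RB-1. Its groups overlapped, the highest and the lowest library both being RB-1 ones. The log2 fold change of 0.21 ± 0.42 (edgeR adjusted p = 0.733) turned to -0.11 without DMSO replicate 2 and to -0.49 without RB-1 replicate 2.

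Levels can be compared between genes only per length. Divided by the length of the longest protein-coding reference transcript, HSPA8 was the most abundant member in both groups, at 1310 ± 46.2 CPM per kb with DMSO and 565 ± 38.9 with RB-1 (SD over 2 libraries here and below). HSPA5 was next in both, at 257 ± 23.6 and 305 ± 21.6 CPM per kb. In DMSO the order went on with HSPA1B (131 ± 5.36 CPM per kb), HSPA9 (111 ± 6.55), HSPA1A (71.7 ± 1.61), HSPA4 (64.3 ± 8.33), HSPH1 (53.3 ± 14.8), HSPA13 (23.6 ± 8.91), HSPA14 (22.2 ± 5.29) and HSPA4L (9.05 ± 2.12). HSPA4 and HSPH1, and likewise HSPA13 and HSPA14, did not differ beyond the spread of their libraries. The separate places of HSPA1A and HSPA1B are uncertain, since the SDs do not cover how shared reads were split between them. The level of the pair as a whole, and the shares below that use it, are uncertain too. Counting may have dropped shared reads, and 30.5% of the HSPA1A windows and 33.9% of the HSPA1B windows also occur in AL671762.1.

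HSPH1 had a lower place among the members in RB-1. It stood there at 7.28 ± 2.09 CPM per kb, ninth of the 10, ahead of HSPA4L alone (2.58 ± 1.04), while in DMSO it was the seventh. In RB-1 the neighbours HSPA1A and HSPA4, and HSPA4 and HSPA13, overlapped in their libraries. The ratio of HSPH1 to its relative HSPA4, both per kb, was 0.91 and 0.734 in the DMSO libraries and 0.224 and 0.239 in the RB-1 libraries, without overlap. The order depends in part on the length used. By coding length HSPA9 ranked 3, HSPA1B 4 and HSPA1A 7 in both groups, against 4, 3 and 5 by transcript length. HSPA4L has a reference transcript of 10790 bases, and by coding length alone it ranked 9 in DMSO, above HSPA14, and 10 in RB-1. By coding length HSPH1 went from rank 6 to 8 and HSPA13, whose libraries overlapped between the groups, from 8 to 5.

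The ER members made up more of the family's transcripts in the RB-1 libraries. The summed level of the 10 members was 2065 and 2042 CPM per kb in DMSO and 1124 and 1118 in RB-1. HSPA8 made up 61.8% and 65.8% of that sum in the DMSO libraries and 52.7% and 48.1% in the RB-1 libraries, and HSPA5 13.3% and 11.8% against 25.7% and 28.6%. HSPA8 stood at 4.66 and 5.58 times HSPA5 per kb in DMSO, and at 2.05 and 1.68 times in RB-1. Shares of a sum are tied to each other, and the share of HSPA5 was larger although its own change in level did not pass. By coding length the shares of both genes were also apart between the groups. The HSP110 genes together made up 7% and 5.33% in DMSO and 2.99% and 4.36% in RB-1. Set against cytosolic HSP70, the HSP110 genes stood at 9.8 and 7.01 per 100 in DMSO and 4.63 and 7.66 in RB-1, so this ratio overlapped between the groups.

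**Figure D3:**
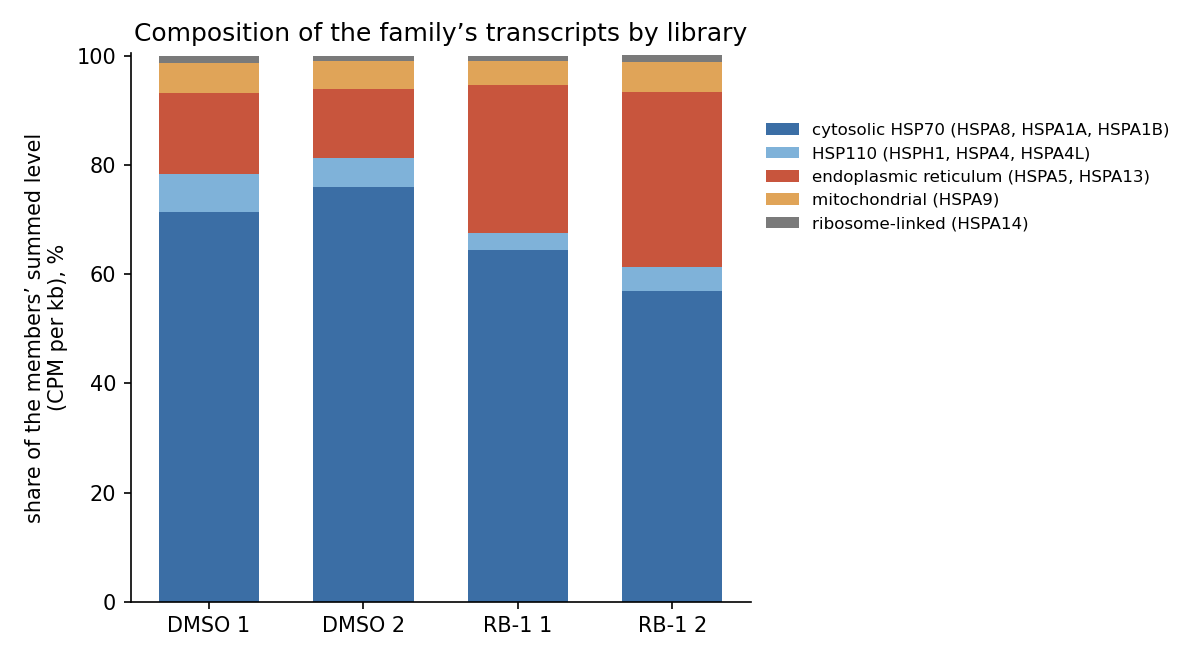
Stacked bars give, for each of the 4 libraries, the share of the members' summed level (CPM per kb, in percent) by compartment. The share of the ER members HSPA5 and HSPA13 is 14.7% and 12.6% in the DMSO libraries and 27.2% and 32% in the RB-1 libraries.

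The genes that work with HSP70 were called about as often as genes in general. Over 7 lists of other HSP70 relatives, exchange factors, J-domain partners, HSP90 and its adaptors, mitochondrial and ER partners, and heat shock factors with small heat shock proteins, 77 of 80 genes were tested. Of these, 15 fell, 9 rose and 53 did not pass, with a median log2 fold change of -0.01. These counts lie near the background of 16.1% of all genes lower and 12.8% higher, so they are no result about the lists, and the counts of single lists below are descriptions. Leaving out 1 library, in the order used above for the members, gave 9, 7, 8 and 14 falls and 5, 2, 5 and 13 rises. With library totals alone 7 fell and 11 rose.

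Of the J-domain partners 5 of 17 fell, 3 rose and the other 9 did not pass (median 0.07). With the length and GC offset 3 fell and 2 rose. The genes described below are those with the smallest p, and all of them fell. The rises numbered 0 with DMSO replicate 2 left out, and 1 with DMSO replicate 1 or RB-1 replicate 1 left out, while 3 to 6 genes fell in these fits and in the one without RB-1 replicate 2. DNAJC2, the partner of HSPA14 at the ribosome, was at 27.7 and 27.5 CPM in DMSO and at 3.9 and 6.38 in RB-1, a 5.37-fold fall (log2 fold change -2.42 ± 0.34, edgeR adjusted p = 0.00106). It shares 9.57% of its exon bases with PMPCB on the opposite strand. DNAJA1, a main J-domain partner of cytosolic HSP70, was at 468 and 406 CPM against 95.5 and 129, a 3.89-fold fall. SEC63, which recruits HSPA5 to the ER translocation channel, was 2.31-fold lower (-1.21 ± 0.26, edgeR adjusted p = 0.00848), and with the length and GC offset it did not pass (-0.52, 0.0596).

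Exchange factors outside the HSP110 group had 1 of 10 lower and 9 that did not pass (median 0.32). With the length and GC offset 3 of them were called higher. The one that fell was BAG3, which links HSP70 to selective autophagy and is itself a heat shock gene. It was at 299 and 427 CPM in DMSO and at 189 and 190 in RB-1 (-0.94 ± 0.25, edgeR adjusted p = 0.0186). BAG3 no longer passed with DMSO replicate 2 (-0.64, edgeR adjusted p = 0.203), RB-1 replicate 1 (-0.93, 0.0956) or RB-1 replicate 2 (-0.94, 0.0555) left out, nor with library totals alone (-0.72, 0.0509). Among the other HSP70 relatives 1 of 6 tested fell and 5 did not pass (median -0.19). That one was HYOU1, the HSP110 of the ER and an exchange factor for HSPA5, at 426 and 516 CPM against 278 and 290. Its fall (-0.73 ± 0.23, edgeR adjusted p = 0.0352) was lost when any 1 of the 4 libraries was left out, with values from -0.86 to -0.56, and with upper-quartile factors (-0.63, 0.0649) or library totals alone (-0.52, 0.114).

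Of HSP90 and the adaptors that hand clients on from HSP70, 4 of 14 fell and 10 did not pass (median -0.28). HSP90AA1, the inducible cytosolic HSP90, was at 3756 and 2602 CPM in DMSO and at 348 and 364 in RB-1, an 8.93-fold fall (edgeR adjusted p = 0.000141). CHORDC1, a co-chaperone of HSP90, was 5.99-fold lower and HSP90B1, the HSP90 of the ER, 3.36-fold lower (-1.75 ± 0.25, edgeR adjusted p = 0.00111). HSP90B1 went from 1176 and 951 CPM to 271 and 362, while HSPA5 in the same compartment did not pass. Whether the changes of HSP90B1 and HSPA5 differ was not tested.

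Of the ER folding genes and sensors 3 of 14 rose, 1 fell and the other 10 did not pass (median -0.05). The rises numbered 2 with DMSO replicate 1 left out and 1 with DMSO replicate 2 left out. The fall was that of SEL1L, a part of the ER degradation machinery, named after its values were seen (2-fold lower, edgeR adjusted p = 0.0447). It was lost with any library other than RB-1 replicate 2 left out, with upper-quartile factors or library totals alone, without a count filter and with the length and GC offset. DDIT3, the stress-induced transcription factor CHOP, was at 10.5 and 8.64 CPM in DMSO and at 51.3 and 25.2 in RB-1 (1.99 ± 0.37, edgeR adjusted p = 0.00443), uncertain because 27.2% of its exon bases overlap MARS1 on the opposite strand. Without RB-1 replicate 1, its highest library, DDIT3 was at 1.40, and with the length and GC offset at 1.38. ATF4, which drives DDIT3, was at 412 and 373 CPM against 797 and 796 (1.02 ± 0.22, edgeR adjusted p = 0.00768), a call lost without DMSO replicate 2 (0.97, 0.0572). ERN1, the sensor IRE1 that HSPA5 binds, rose from 18.2 and 18.3 CPM to 34.5 and 46.6 (1.15 ± 0.29, edgeR adjusted p = 0.0155), and did not pass without DMSO replicate 1 (1.15, 0.102) or DMSO replicate 2 (1.18, 0.107).

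In the mitochondrial list 3 of 9 rose, 1 fell and 5 did not pass (median 0.37). With the length and GC offset 1 rose and 2 fell. With a library left out, 2 rose and 0 fell without DMSO replicate 1, 1 rose and 1 fell without DMSO replicate 2, and 1 rose and 0 fell without RB-1 replicate 1. PAM16, a part of the import motor that works with HSPA9, was at 4.64 and 4.27 CPM in DMSO and at 23.1 and 12.8 in RB-1 (2.01 ± 0.37, edgeR adjusted p = 0.00384), uncertain because 21.9% of its exon bases are shared with the read-through gene CORO7-PAM16. With the length and GC offset PAM16 was at 1.18. HSPD1, the chaperonin HSP60 that receives proteins from HSPA9, fell from 475 and 366 CPM to 210 and 250 (-0.87 ± 0.24, edgeR adjusted p = 0.022). That call was lost without DMSO replicate 1 (-0.67, edgeR adjusted p = 0.155) or RB-1 replicate 1 (-0.74, 0.123) and with library totals alone (-0.69, 0.0854). LONP1, the matrix protease, rose by a log2 fold change of 0.76 ± 0.23 (edgeR adjusted p = 0.0326), which did not pass with RB-1 replicate 1 (0.67, 0.117), DMSO replicate 1 (0.88, 0.0898) or DMSO replicate 2 (0.68, 0.201) left out, nor with the length and GC offset (0.54, 0.0533).

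The list of heat shock factors and small heat shock proteins, which also holds HSBP1 and SERPINH1, had 2 of 7 genes lower. The other 5 did not pass (median -0.62). SERPINH1, a collagen chaperone of the ER, was at 118 and 242 CPM in DMSO and at 93.7 and 67 in RB-1 (-1.16 ± 0.35, edgeR adjusted p = 0.0326). Without DMSO replicate 2, its highest library, it was at -0.53 (edgeR adjusted p = 0.366), and the call was also lost without either RB-1 library (-1.43, 0.132 and -0.94, 0.172), with upper-quartile factors (-1.07, 0.0519) and with library totals alone (-0.94, 0.055). HSPB8, the small heat shock protein that works with BAG3, was low, at 3.9 and 5.89 CPM against 2.7 and 1.2 (-1.32 ± 0.45, edgeR adjusted p = 0.0473), and lost its call in 8 of the alternatives. Among these were the fits that left out DMSO replicate 1 (-1.59, edgeR adjusted p = 0.0504), DMSO replicate 2 (-0.97, 0.244) and RB-1 replicate 2 (-0.85, 0.181), while it stood at -2.02 with RB-1 replicate 1 left out.

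**Figure D4:**
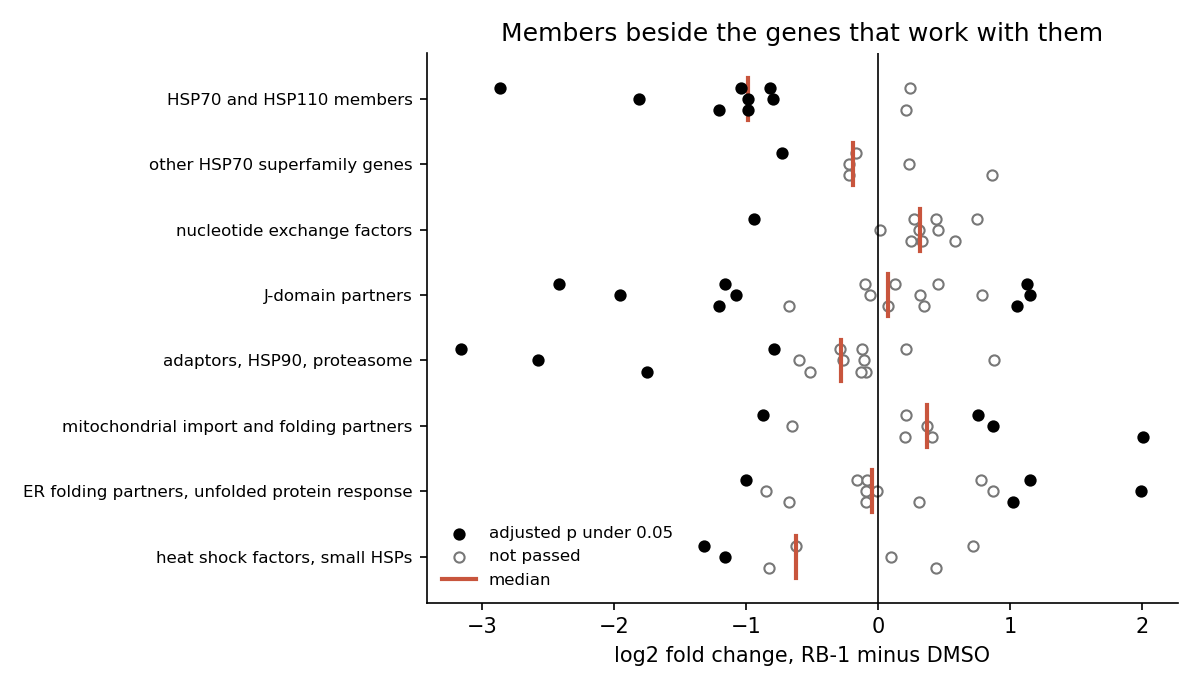
Each circle is a tested gene at its log2 fold change (RB-1 minus DMSO), filled where the edgeR adjusted p was under 0.05, with the median of each row in red. The members sit at a median of -0.99 with 8 filled circles below zero, while the medians of the 7 lists run from -0.62 to 0.37.

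The genes with the pattern most like that of 2 members were taken by the distance between log2 CPM values centred on each gene's mean over the 4 libraries, among 11450 genes. Nearest to HSPH1 were CRYBG3 (distance 0.07), CASP8AP2 (0.117) and ANKRD26 (0.141), with log2 fold changes of -2.92, -3.03 and -3.06. Nearest to HSPA8 were RBM14 (0.0396), CDC6 (0.0755) and AK9 (0.0764), at -1.21, -1.28 and -1.28. Like fold changes follow from this choice, and whether these genes share a regulation with the members was not tested. CRYBG3, CASP8AP2 and ANKRD26 have reference transcripts of 10729, 6151 and 6827 bases. Like HSPH1, they belong to the longest quartile (5181 bases or more), in which values were lower in general. CRYBG3 shares 17.4% of its exon bases with RIOX2 on the opposite strand, and RBM14 shares 11.0% with RBM14-RBM4.

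The label of the cells was checked against markers. The 7 genes known for this mesenchymal line, among them VIM and CD44, summed to 9327 and 11015 CPM in DMSO and to 10980 and 10599 in RB-1. The estrogen receptor gene ESR1 stayed under 1 CPM, between 0.106 and 0.659. The 6 hormone receptor and luminal genes summed to 28.6 and 40.7 CPM in DMSO and to 16.8 and 17.7 in RB-1, and CDH1 had no counts in DMSO replicate 2 and 2 counts in each other library. Members of that sum differed in direction: FOXA1 was at 7.31 and 7.32 CPM against 0.61 and 0.694, GATA3 at 9.69 and 21.9 against 2.25 and 3.18, and EPCAM at 9.46 and 9.55 against 13.5 and 13.1. Among the line's genes CAV1 was at 617 and 587 CPM against 316 and 332, and VIM at 3565 and 4243 against 5423 and 4966. The part of these differences in the members' results was not tested. Of the 4 markers of blood, endothelium and liver, CD3E had no counts in any library, and their sum was at most 1.86 CPM.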

How the data were processed

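RNA of MDA-MB-231 cells was sequenced in 2 DMSO and 2 RB-1 libraries. The deposited table holds the authors' raw counts per gene for human Ensembl IDs, with no normalization and 1 column per library. Aligner, counter and strandedness were not given in the sources used here, and the submitters' processing notes list mouse genome builds beside human gene IDs, so the genome build is uncertain. Reads of overlapping genes cannot be assigned with confidence. A table of gene names matched 20148 of 20263 IDs, and lengths come from GENCODE release 29. Promoter sequences and their coordinates come from RefSeq on GRCh38.p14, and protein sequences were not used here.

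Genes were kept by filterByExpr (13612), scaled by TMM (factors 0.868 to 1.098) and tested with edgeR 4.0.16 in R 4.3.3 (estimateDisp, robust glmQLFit, glmQLFTest), two-sided, with Benjamini-Hochberg adjustment over all genes and a threshold of 0.05. The SE is the log2 fold change divided by the square root of F. The script was tested on simulated counts that had fewer changed genes than these data and no trend with length. That test does not vouch for the calls given here. Replicate libraries differed by more than sampling noise (chi-square per degree of freedom 255.3 in DMSO and 127.4 in RB-1), so none was counted as a duplicate of another, which does not show that they are separate cultures. Depth was 34122874 to 37754168 counts per library, so for the members the spread between 2 libraries, not counting error, limits the precision.

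The members and lists were chosen with earlier results of these data known. All members are named, and of each list the 3 called genes with the smallest p, or the only ones called. HSPA7, of the lists, was not matched, and DNAJA4 and CRYAB were too low to be tested. Alternatives were RLE, upper-quartile or no scaling factors, no count filter and a stricter one (1 CPM and a mean of 50 counts), DESeq2 1.42.0, limma-voom (limma 3.58.1), leaving out each library, the replicate number as a block, a length and GC offset (loess, span 0.3) and an adjusted p under 0.01. The legacy quasi-likelihood fit and coding length were added after seeing the data.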

Additional observations from a re-analysis of the deposited data

How the results depend on the processing

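Over 14 alternatives for each of the 10 members, 120 of 140 values kept their direction and their side of the threshold. Another 18 kept the direction and no longer passed, and 2, both of HSPA13, changed sign (-0.11 when DMSO replicate 2 was left out, -0.49 when RB-1 replicate 2 was, and 0.69 at the other end of that range). HSPH1, HSPA8 and HSPA4L passed in all 14. Leaving out single libraries gave 3 to 6 members lower, 7 to 14 listed genes lower and 2 to 13 higher, 1065 to 2443 of all genes lower and 522 to 1955 higher, and -1.03 to -0.61 for the summed HSPA1A and HSPA1B. With 1 library left in a group, that library is assumed to vary like the others. Library totals alone gave 4 members, 7 listed genes and 1400 of all genes lower, and -0.62 for the summed pair (edgeR adjusted p = 0.0828), and the cause was not tested. An adjusted p under 0.01 gave 3 members lower, 7 listed genes lower and 3 higher, and 1067 of all genes lower and 513 higher, fewer by construction. Upper-quartile factors and library totals moved the median of all genes by 0.11 and 0.20, and less that shift the members lay within 0.02 of their values above. As a change of factors shifts all genes nearly alike, that closeness was fixed in advance. The share of higher genes among all calls was 44.2%, against 54.3% and 59.5% (1737 higher and 2189 lower, against 2171 and 1830, and 2059 and 1400).

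With the replicate number as a block, 8 members were lower, 15 listed genes lower and 10 higher, and the summed pair was at -0.82 (edgeR adjusted p = 0.0177). The labels do not say that a number marks a shared culture. Deviations of same-numbered libraries had a correlation of -0.0959 over genes, which does not settle whether they shared one. By CPM, not per length, 8 members had another rank in DMSO, and by coding length 7 did. With 2 libraries per group, a member that did not pass may still have changed.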
